A study of Drosophila melanogaster with 2 samples.

Results

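The 10 genes described here are dl, cact, Tl, twi, sna, rho, sim, htl, tin and Mef2 of Drosophila melanogaster, a given list of genes that pattern the back-to-belly axis of the embryo or build its mesoderm. They stand beside all 13968 protein-coding genes of the Ensembl annotation. A region belonged to a gene when its summit, the base of strongest enrichment, lay inside the gene body or within 1000 bp of a transcription start site (TSS). Binding of CG11723 had been measured by ChIP-seq in a fly line that stably expresses CG11723 with GFP at its C-terminus. Whole embryos of both sexes, 0 to 16 hours old, were used, and an antibody against GFP pulled down chromatin sonicated to 200 to 800 bp. There was 1 group with 2 biological replicates, numbered 1 and 3. No untagged or input sample was analysed here, so nothing could be compared between conditions. Both replicates come from the same transgenic line, and all embryonic tissues are mixed, so a region cannot be placed in the mesoderm or any other cell type. Of the 3869 regions that passed the authors' irreproducible discovery rate (IDR) step, 12 lay at the 10 genes. Of the 30000 pooled regions, which come from both replicates' alignments and were listed before thresholding, 80 did. In single replicates the genes held 70 regions in replicate 1 and 78 in replicate 3.

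In the early embryo a ventral signal activates the receptor Toll (Tl), which leads to breakdown of the inhibitor Cactus (cact) and lets the NF-kB family factor Dorsal (dl) enter ventral nuclei in a graded way. High Dorsal turns on twist (twi) and snail (sna) in the future mesoderm, while lower levels act with Twist on genes of the neurogenic ectoderm such as rhomboid (rho), and single-minded (sim) marks the ventral midline. In the mesoderm, heartless (htl) encodes a fibroblast growth factor receptor, tinman (tin) a homeobox factor of heart and visceral muscle, and Mef2 a MADS-box factor of muscle differentiation.

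The 4 regions with the highest signal at these genes were at sim, tin, cact and htl. Their summit windows are shown because these 4 genes kept a region among the 1934 IDR regions of highest signal. Each line gives the summit, which is base 51, with 50 bases on each side, on the forward strand of dm6, as RefSeq holds that sequence. Capitals mark a match to a searched motif on either strand, GAGAG in sim and TCGATA, the core of the site of the promoter factor Dref, in cact and htl.
sim, 3R:13068178-13068278: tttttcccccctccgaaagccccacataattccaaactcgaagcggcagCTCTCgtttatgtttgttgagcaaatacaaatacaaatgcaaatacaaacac
tin, 3R:21378729-21378829: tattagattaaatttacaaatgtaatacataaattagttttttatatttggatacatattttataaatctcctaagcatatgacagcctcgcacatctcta
cact, 2L:16325782-16325882: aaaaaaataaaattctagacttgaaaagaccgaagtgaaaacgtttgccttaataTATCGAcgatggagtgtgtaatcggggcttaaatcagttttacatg
htl, 3R:18049676-18049776: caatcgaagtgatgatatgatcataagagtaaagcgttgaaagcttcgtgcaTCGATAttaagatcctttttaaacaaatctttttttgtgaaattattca

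The windows differed widely in base composition. The tin window held 23.8% G and C and the htl window 29.7%, against 33.7% at cact and 41.6% at sim. Over the 12 summits the GC content ran from 23.8% to 52.5% with a median of 38.1%, and the median of all 3869 IDR windows was 34.7%. On both strands, 10 motifs were searched in these windows. GAGAG, the site of the GAGA factor, was in 1 of the 12 windows (sim) and in 11.9% of all IDR windows. The E-box CACATG, a site to which Twist can bind, was in 1 (Mef2) and in 4.34% of all IDR windows. The other 8 had no match at the members. Their shares of all IDR windows were 1.76% for the full Dref site TATCGATA, 0.439% for the Zelda site CAGGTAG and 4.08% for the Dorsal-like GGGNNNNCC. They were 2.27% for the E-box CAGGTG bound by Snail, 1.63% for the Tinman site TCAAGTG and 6.13% for the Mef2 site. They were 6.77% for ACGTG, which holds the Sim site, and 8.12% for ACAGTG. The core TCGATA, which is part of TATCGATA, was added after the windows had been read and matched 2 of the 12, with 6.41% over all IDR windows. A window without a match shows only that these letters are not in it.

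Of the 10 genes, 7 carried an IDR region, namely dl, cact, rho, sim, htl, tin and Mef2. Tl, twi and sna carried none. Among protein-coding genes 20.5% carried one by the same rule, and 45.7% carried a region of the pooled list, as all 10 members did. Long genes collect more regions under a rule that counts the gene body, and the median body was 13353.5 bp for the 10 genes against 2164.5 bp for coding genes. Of the 2 members under 5 kb, tin carried an IDR region and sna did not, against 13.8% of coding genes of that length. All 4 members of 5 to 20 kb did (dl, cact, rho and htl), against 35.1%. Of the 4 members of 20 kb and over, sim and Mef2 did while Tl and twi did not, against 53.8% of such coding genes. twi is in this class only through 1 transcript that starts far upstream of its other TSSs. The members' count was above the share of all coding genes, and at 20 kb and over it was near that of other long genes, in classes of 2 to 4 members. Members were chosen with earlier results of these data known, and the length classes after the values were seen. The difference from coding genes was not tested. With a top list of the same 3869 regions taken from 1 replicate alone, 6 members had a region in replicate 1 (cact, rho, sim, htl, tin and Mef2), beside 19.5% of coding genes. In replicate 3 it was 8 members, the 7 above and Tl, beside 23.0%. In replicate 1 rho counted through a region at its TSS that was not its IDR region.

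**Figure D1:**
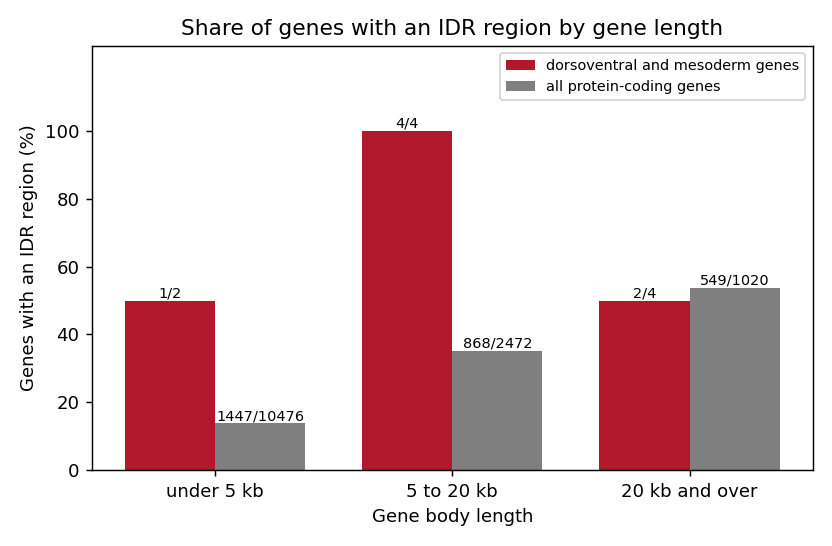
Share of genes with an IDR region (vertical axis, percent) by gene body length, with the dorsoventral and mesoderm genes in red and all protein-coding genes in grey; the numbers over the bars count genes with a region out of all genes. All 4 members of 5 to 20 kb had one, against 35.1% of coding genes, while 2 of 4 members of 20 kb and over did, against 53.8%.

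In signal and in the share that passed the IDR step, the regions at these genes were near those of other coding genes. The 12 made up 15% of the 80 pooled regions (exact Clopper-Pearson 95% interval 8.0 to 24.7, counting error only), beside 14.8% of the 22371 pooled regions at protein-coding genes. Their signal, the peak caller's enrichment value with no stated scale, ran from 100 to 365 with a median of 131. The median of the 3317 IDR regions at coding genes was 147. Over the 80 pooled regions the median signal was 33.4, against 32.7 at coding genes. Overlapping regions share reads, and merging them left 9 blocks of the 12. The interval above treats the regions as independent, so it can be too narrow. The deposited −log10 q stood at its cap of 3.79 for 10 of the 12, so it does not order them.

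**Figure D2:**
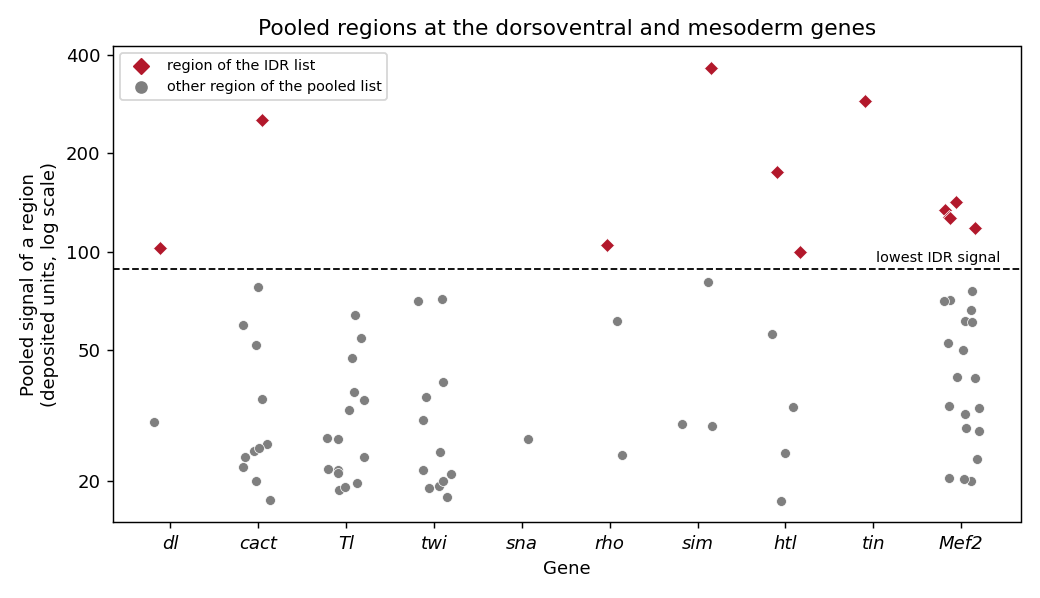
Signal of every pooled region at each of the 10 genes (vertical axis, deposited units, log scale; genes along the horizontal axis, points spread sideways for legibility). Red diamonds are IDR regions and grey points the other pooled regions. The dashed line marks the lowest IDR signal, 88.8. The regions at sim (365), tin (289) and cact (252) stand highest, and no point of Tl, twi or sna reaches the line.

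Of the 3 members that act in maternal Toll signalling, cact had the highest signal. cact (FBgn0000250, 2L:16313036-16326207) carried 1 IDR region, 2L:16325653-16325912, with a pooled signal of 252 (rank 730 of 30000). It ranked 1182 in replicate 1 and 656 in replicate 3. Its summit lay in an intron, between the 4 annotated TSSs and within 412 bp of each, 207 bp from the nearest. Another 11 pooled regions spread over the gene body had signals of 17.5 to 78.3. The strongest of those, whose summit was 7371 bp from the nearest cact TSS, ranked 3041 in replicate 1 and 7711 in replicate 3. dl (FBgn0260632, 2L:17436830-17450364) carried 1 IDR region with a signal of 103, rank 3127. It ranked 4976 in replicate 1 and 2326 in replicate 3. Its summit was 541 bp upstream of the first dl TSS and inside lncRNA:CR46204, a non-coding RNA gene whose TSS was nearer at 411 bp. The other 2 dl TSSs had no pooled region within 1000 bp. Tl (FBgn0262473, 3R:26799041-26842403) had 15 pooled regions and no IDR region. Its strongest, 10 bp from the only TSS, had a signal of 64.0 and rank 5922. At that TSS replicate 1 had a signal of 49.0 (rank 5049), 98 bp into the gene, and replicate 3 had a signal of 23.7 (rank 7479), 4 bp from the TSS. The strongest region of replicate 3 at Tl was 664 bp into the gene with a signal of 41.3 (rank 3748). Ranks, rather than signals, can be set side by side between replicates, because each list has its own scale.

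The mesoderm determinants twi and sna, which encode a basic helix-loop-helix activator and a zinc finger repressor, had little signal at their TSSs. sna (FBgn0003448, 2L:15476593-15478260) had 1 pooled region, 410 bp into the gene, with a signal of 26.9 and rank 17987. It was in the list of replicate 1 at rank 22124, and replicate 3 had no region at sna. Of all coding genes, 39.8% had a stronger best region than sna, while only 45.7% had any pooled region. twi (FBgn0003900, 2R:22985374-23048325) is annotated over 62952 bp because 1 of its transcripts starts far upstream, and the interval holds the TSSs of other genes. Its 12 pooled regions had signals of 17.9 to 71.6. The 2 strongest were away from the twi TSSs, with summits 16 bp from the TSS of CG9896 (71.6, rank 5142) and 4384 bp from it (71.0, rank 5196). The first of these overlapped no region of replicate 1. Counted over the whole interval, 24.0% of all coding genes, with or without a pooled region, had a stronger best region than twi. At the 2 downstream twi TSSs, which lie close together, the strongest pooled region had a signal of 30.7 (rank 15190), and at the far upstream TSS there was none. The region at the downstream TSSs was found in replicate 1 (rank 10862) and not in replicate 3.

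Of the 2 ectodermal genes, sim had the strongest region of the 10 genes. sim (FBgn0004666, 3R:13057755-13078124) encodes a basic helix-loop-helix PAS factor that specifies midline cells. Its IDR region, 3R:13068075-13068388, had a signal of 365 and rank 360, and ranked 262 in replicate 1 and 732 in replicate 3. The summits of both replicates were within 13 bp of the pooled one. Of coding genes, 3.04% had a stronger best region. The summit lay in an intron, 4171 bp upstream of the nearest sim TSS, and none of the 3 sim TSSs had a region of the pooled list or of either replicate within 1000 bp. The other 3 pooled regions at sim had signals of 29.4 to 80.6. rho (FBgn0004635, 3L:1463811-1468944) encodes an intramembrane protease that releases an epidermal growth factor ligand. Its IDR region had a signal of 105 and rank 3039, 835 bp into the gene in an intron, and ranked 6174 in replicate 1 and 2458 in replicate 3. The interval also lies within Ptp61F, a gene for a protein tyrosine phosphatase. A region at the rho TSS itself, 62 bp from it, had a pooled signal of 61.3 (rank 6272). In replicate 1 that position was the stronger of the pair, with a signal of 66.1 (rank 3076), 42 bp from the TSS, and replicate 3 had no region there.

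**Figure D3:**
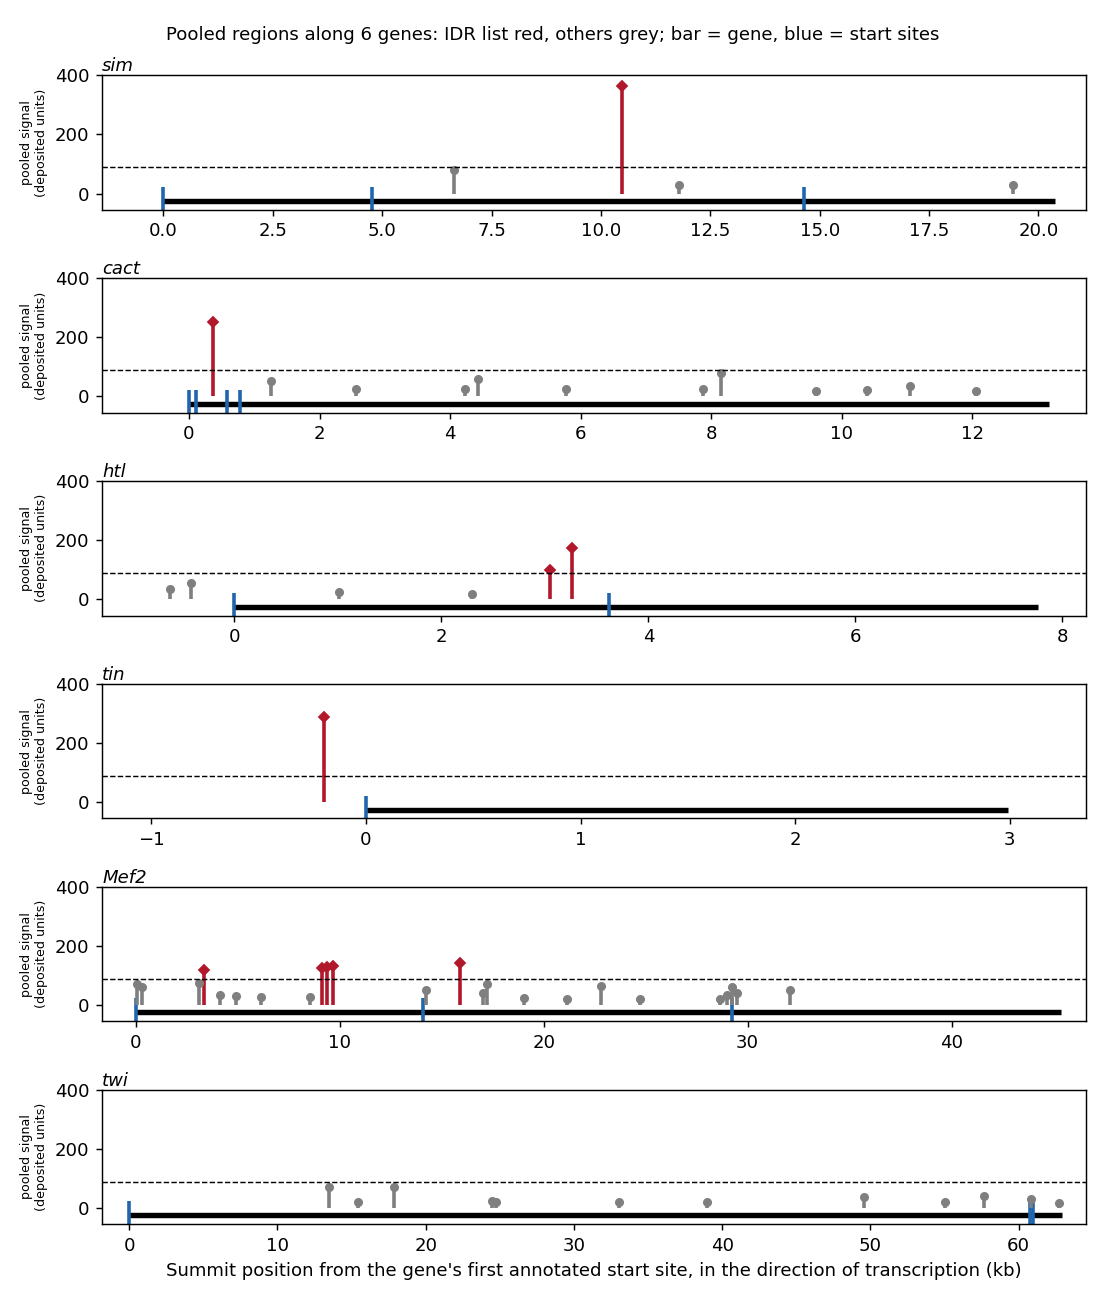
Pooled regions along sim, cact, htl, tin, Mef2 and twi, with the summit's distance from the first annotated start site in the direction of transcription (horizontal axis, kb) and the pooled signal (vertical axis, deposited units). Red stems are IDR regions, grey stems other pooled regions, black bars the gene bodies, blue ticks the annotated start sites and dashed lines the lowest IDR signal, 88.8. The strongest stem of sim (365) is in an intron away from every start site, that of tin (289) is 198 bp upstream of its start site, and the 5 of Mef2 lie between 118 and 142.

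The 3 genes of mesoderm differentiation carried 8 of the 12 IDR regions, 5 of these 8 at Mef2, the longest of the 3. Some of the 8 overlapped each other. tin (FBgn0004110, 3R:21378977-21381970) had 1 region in each list. Its pooled signal was 289 (rank 572), and its summit was 198 bp upstream of the only TSS. It ranked 414 in replicate 1 and 1091 in replicate 3. htl (FBgn0010389, 3R:18045216-18052984) has 2 TSSs, and both IDR regions lay in an intron just upstream of the downstream TSS. The stronger, 360 bp upstream, had a signal of 175 (rank 1446), and the weaker, 570 bp upstream, overlapped it and had a signal of 100 (rank 3237). The first ranked 1917 in replicate 1 and 1265 in replicate 3. For the second, the region with the nearest summit ranked 3130 in replicate 1 and 2542 in replicate 3. At the upstream htl TSS the strongest pooled region had a signal of 56.2 (rank 7020), and replicate 3 had no region there.

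Mef2 carried the most IDR regions, 5, at distances from its TSSs. Of coding genes, 0.487% had 5 or more IDR regions and 5.91% had 2 or more. Both shares are over coding genes of every length (median 2164.5 bp) and were not matched to the length of Mef2. Overlapping regions were counted separately. The gene (FBgn0011656, 2R:9913496-9958858) spans 45363 bp and had 24 pooled regions, or 1.08 IDR regions per 10 kb searched, against 2.50 for tin and 2.28 for htl. The 5 had signals of 142, 134, 128, 127 and 118. A cluster of 3 overlapping regions, with summits 4430, 4740 and 4968 bp upstream of the nearest Mef2 TSS, lay in an intron. The others were 1812 bp from the nearest TSS, in an untranslated exon of some transcripts, and 3322 bp from it, in an intron. At the 3 Mef2 TSSs the strongest pooled regions had signals of 61.3, 52.8 and 70.9 (ranks 6268, 7597 and 5207), all outside the IDR list. Among the 12 regions the replicate ranks differed most at Mef2. The region 1812 bp from the TSS ranked 1087 in replicate 1 and 6893 in replicate 3, and the one 3322 bp away ranked 1795 in replicate 1 and 9218 in replicate 3, where the overlapping summit was shifted by 267 bp. The region of the cluster at 4430 bp ranked 2809 in replicate 1 and 1720 in replicate 3.

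Each of the 12 regions overlapped a region of both replicates by at least 1 bp. The IDR list was made from both replicates' lists, so this overlap is largely built in. The ranks of the 12 in the 2 replicates differed by 1.49 to 6.34 times. Regions that overlap each other can be matched to the same replicate region, as were the 2 Mef2 regions with the ratio of 1.49. Of the 12, 8 were among the top 3869 of both replicates (66.7%, beside 60.4% of IDR regions at coding genes), 2 of replicate 1 alone (the outer 2 of Mef2) and 2 of replicate 3 alone (dl and rho). The rank was better in replicate 1 for 6 and in replicate 3 for 6. Spearman's rho of the 2 replicates' signals over the 12 was 0.218, a description over points that include overlapping regions. Of the 80 pooled regions, 45 overlapped a region of both replicates (56.2%, beside 51.0% of pooled regions at coding genes), 17 of replicate 1 only and 15 of replicate 3 only. Both replicates contribute to the pooled list, so part of this overlap is built in.

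**Figure D4:**
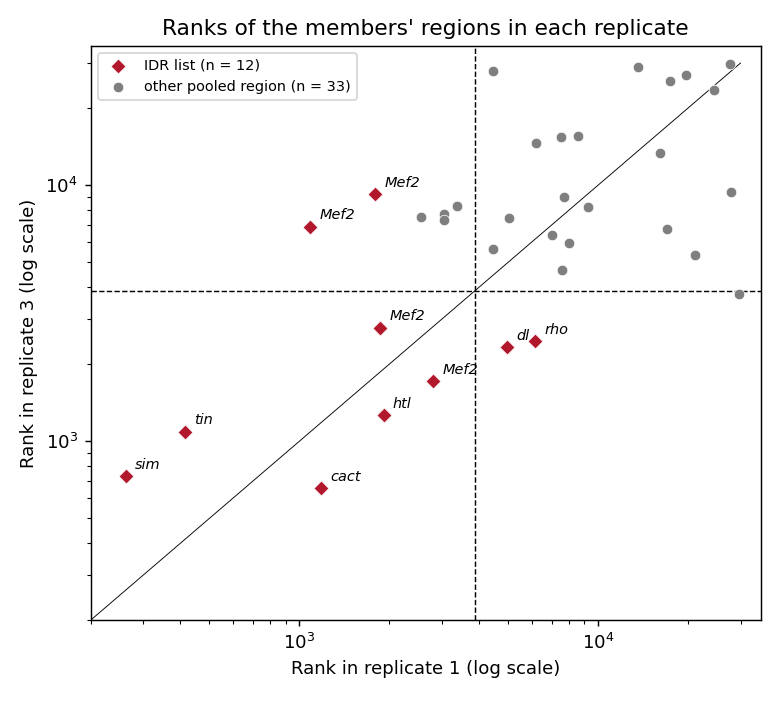
Rank of the strongest overlapping region in replicate 1 (horizontal axis) against replicate 3 (vertical axis), both on log scales, for pooled regions at the 10 genes that overlap a region of both replicates; red diamonds are the 12 IDR regions, some of which share a point, and grey points the 33 others. Dashed lines mark rank 3869. sim, tin, cact and htl lie in the lower left, dl and rho beyond the vertical line, and 2 Mef2 regions above the horizontal line.

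Of the 12 summits, 9 were in introns of the gene, 1 was in an exon and 2 were upstream of the body. The rule searched gene bodies and their start sites alone, so summits inside the body are largely given by it. The nearest TSS of any gene belonged to the gene itself for 11, the exception being that of dl. Within 1000 bp of an own TSS were 6 summits, and 3 of those within 500 bp (cact, htl and tin). The strongest of the nearest IDR regions outside the rule lay 1038 bp upstream of the first Mef2 TSS, at 2R:9959694-9960118. It had a signal of 923 (rank 18), and was 164 bp from the TSS of Pdrg1. The nearest outside tin was 2563 bp upstream, with a signal of 200 (rank 1152), nearest to mod(mdg4), a BTB-domain chromatin protein. The nearest outside dl was 6501 bp downstream of the body, with a signal of 243 (rank 785), nearest to lncRNA:CR44409 within the neighbouring gene Dif. The nearest outside cact was 5849 bp downstream, with a signal of 107, 111 bp from the TSS of CG5861. Around Tl, twi, sna, rho, sim and htl there was no IDR summit within 10 kb of the body, other than those already counted. For sna the nearest was 20754 bp upstream, 113 bp from the TSS of lace (167), and for twi it was 16089 bp downstream, 154 bp from that of CG9890 (102).

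Other genes of the same pathways carried IDR regions in 18 of 51 cases (35.3%), beside 20.5% of coding genes, and 17 of the 18 were genes of 5 kb or more. Of related genes of at least 5 kb, 17 of 30 had one, against 40.6% of coding genes of at least 5 kb. At 20 kb and over all of them but sns had one, against 53.8% of coding genes. At 5 to 20 kb most of them had none, as did most coding genes of that length, of which 35.1% had one. Of related genes under 5 kb, 1 of 21 had one, against 13.8% of coding genes under 5 kb. This is a lower share in a small class, and lengths within the class were not matched. Among 12 genes listed under maternal Toll signalling, 3 did. Dif (strongest region 288) is an NF-kB factor of Toll immunity rather than of the maternal pathway. The others were Myd88, a Toll adaptor (156), and pip, a sulfotransferase of the ventral eggshell cue (134). The receptor's ligand spz and the kinase and adaptor genes pll and tub carried no IDR region. pll had no pooled region, yet replicate 3 alone held a region there at rank 1555. Among 12 genes of zygotic dorsoventral patterning, 5 did. These were spi, an epidermal growth factor ligand (407), brk, a repressor of Dpp target genes (269), sog, an inhibitor of Dpp (203), dpp itself, a bone morphogenetic protein (203), and Egfr, the receptor of spi (113). The short genes zen, tld, ind, tsg and scw had no pooled region. Among 27 genes of mesoderm invagination, spreading and differentiation, 10 did. The highest were kirre, an adhesion protein of muscle founder cells (343), cta, a G protein subunit of gastrulation (281), mbc, needed for myoblast fusion (236), stumps, an adaptor of the htl receptor (228), and zfh1, a zinc finger homeodomain factor (183). kirre spans 394149 bp and held 13 IDR regions. Ranks of these top regions in both replicates lay between 222 and 3397.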

How the data were processed

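ChIP-seq of GFP-tagged CG11723 was analysed in 2 biological replicates of mixed-sex embryos. The authors deposited narrowPeak lists on dm6 and dm3, and the dm6 lists were used, namely 1 per replicate, 1 pooled and the IDR list. Per the submitters' file notes, each replicate list came from that replicate's alignments and a further file, the pooled list from both replicates' alignments and the same file, and the IDR list from these 3 lists. The labels name a possible control. Which aligner, caller and IDR threshold were used is not given in the sources used here. Each deposited signal value lacks a stated scale and served only to order a list. The −log10 q values, as deposited, are capped. Read depth is unknown here.

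Genes came from Ensembl release 115 without transposable elements, on the major arms and Y (18277 genes). No region ended past its arm in the RefSeq sequence. Summits were counted from 1. A replicate's rank at a region is that of its strongest region overlapping by at least 1 bp. No test was made, because there is 1 group, and counts are set beside all coding genes. Intervals are exact Clopper-Pearson 95% intervals. Members and lists were chosen with earlier results of these data known. All 10 members are named, with up to 5 related genes per list by pooled signal, and genes at or next to members' regions. Related genes named without an IDR region, the length classes and the motif core TCGATA were chosen after the values were seen. Python 3.11.15, pandas 2.3.3 and scipy 1.17.1 were used, and the assignment rule and motif search were tested on simulated data.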

Additional observations from a re-analysis of the deposited data

How the results depend on the processing

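The 7 members with an IDR region became 6 with a 500 bp TSS window plus the body, 7 with the region's midpoint and 7 with any overlap of 1 bp. By these rules 19.2%, 20.5% and 21.2% of coding genes carried one. Values moved most where gene bodies or weaker regions were left out. With a 500 bp TSS window and no body, 3 members carried 3 IDR regions with a median signal of 252, and 7 related genes had one. With a 1000 bp TSS window and no body, 5 members carried 6 IDR regions, 26.1% of their pooled regions. Here 17.5% of coding genes and 8 of the 51 related genes had one. In the 1934 IDR regions of highest signal, 4 members carried 4 regions, 5.0% of the pooled regions, with a median of 271. Of coding genes, 12.7% carried one of those 1934. Sequence windows with 100 bases on each side of the summit matched 5 motifs in place of 2. The share of all IDR windows with a match also rose for each of the 10 motifs. In these longer windows the motif first seen at sim was in 4 of the 12, and in 25.1% of all IDR windows. The E-box first seen at Mef2 was in 3 of the 12, and in 8.58%. The newly matched motifs were each in 1 of the 12, with shares of 4.91%, 14.6% and 18.4%. Left out in turn, the replicates gave 6 to 8 members, beside 19.5% to 23.0% of coding genes. They also gave 11 to 14 regions, shares of 14.1% to 20% and 19 to 20 related genes. The calls of dl and Tl thus depended on the replicate. The call of rho stood in each, but through different regions, the one at its TSS in replicate 1 and the intronic one in replicate 3. Chosen after seeing the data, counting only members whose own TSS is nearest gave 6, and 1 region per block gave 9. A reciprocal overlap of 50% matched 9 of the 12 regions to both replicates. Counts within 1.5 times and shares within the 95% interval were taken as unmoved, which held for 33 of 45 alternative values. Signal medians could not be compared between replicates, whose lists have their own scales. No paired analysis was possible because there is 1 group. Depth is unknown, so a gene without a region cannot be told from one below detection.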
